A study of Mus musculus with 135 samples.

Results

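In single ovulated mouse oocytes, 47 genes were each at a low level in some sets of oocytes and at a high level in the remaining sets, with an empty interval between. A set is the group of oocytes whose titles share an identifier, and there were 13 sets. The members were chosen from the measured values. Counts were summed over the oocytes of a set and scaled to the library total as CPM (a gene's share of the summed counts, in the field's usual unit). Of 53715 genes in the count tables, 8340 reached 10 CPM in their highest set. A gene was kept if its sorted log2(CPM + 1) values held a gap of at least 2 with at least 2 sets on each side, which 55 genes (0.659% of the 8340) did. A list of 9 genes was then left out by name, 8 of which had passed, so that 47 remained. Because these values chose the members, their division into high and low sets is a description and is given with no test.

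The oocytes were at metaphase II, from mice of mixed C57BL6/129 background, either wild type (WT), Tet1-/- or Tet2-/-. Young mice were 2 to 4 months of age and old mice 10 to 12. Of the 94 oocytes matched to a count column, 38 were young WT (sets Young_WT__246, T148, T211 and T231), 15 young Tet1-/- (sets Young_Tet1-/-_201 and T146), 16 young Tet2-/- (sets T213 and T214), 12 old WT (sets Old_WT_365 and Old_WT_247), 6 old Tet1-/- (sets Old_Tet1-/-_209 and Old_Tet1-/-_315, the latter a single oocyte) and 7 old Tet2-/- (set S161). Primordial germ cells of E13.5 embryos, purified from pooled embryos, gave 1 WT and 1 Tet2-/- library. The labels do not tie a set to an animal, a litter or a day, so p-values measure the spread between sets. Sets named with a letter and sets named with a number come from separate count tables, here called the lettered and the numbered series. A numbered set is written with its group, as in the sample titles.

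The metaphase II oocyte is close to transcriptionally silent, and its RNA is a store of maternal transcripts made while the oocyte grew. TET1, TET2 and TET3 oxidise methylated cytosine, the initial step of active DNA demethylation. Among the genes described here are a circadian transcription factor (Arntl2), an adhesion protein (Cdh20), an actin-binding coronin (Coro2b), the inhibitor of the calpain proteases (Cast) and a replication fork factor (Donson).

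Total counts ran from 2354503 to 12472307 per oocyte (median 3985321) and no 2 oocytes agreed within sampling noise. All 14 oocyte markers reached 10 CPM and their summed level was 20510 to 30870 CPM across sets. Of 15 cumulus and granulosa markers, summing to 30.18 to 70.98 CPM, 10 stayed under 1 CPM in every set. The others were Cyp19a1 (22.18 to 55.86 CPM), Nr5a2 (4.97 to 13.96 CPM), Kitl (1.33 to 4.55 CPM), Ptgs2 (up to 2.65 CPM) and Cyp11a1 (up to 2.09 CPM). Tet1 was at 1.80 to 4.61 CPM in the young WT sets and at 0 to 0.0340 CPM in the young Tet1-/- sets (edgeR log2 change -6.96, adjusted p = 0.0136), and at 1.15 to 1.64 CPM in old WT against 0 to 0.0474 CPM in old Tet1-/- (adjusted p = 0.137). Tet2 was at 1.18 to 1.30 CPM in the young Tet2-/- sets against 1.53 to 3.20 CPM in young WT, a difference that did not pass the test (edgeR adjusted p = 0.822), so its counts give no firm check of that label. Single oocytes stood apart in 2 sets. Oocyte 8 of set Young_Tet1-/-_201 lay on the side of its own set for 38 of the 47 genes, and 1 oocyte of set S161 held 2072 CPM of macrophage and leukocyte transcripts, against 52.6 CPM in the next highest oocyte.

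The promoters of 4 genes on 3 chromosomes are shown first, because these genes divided the 13 sets in exactly the same way. The direction differed: AA465934 was high, at 9.09 to 34.5 CPM, in the sets where the others were low. It was at 0.311 to 0.763 CPM in the sets where they were high. Ighg2b, Rrs1 and Grb7, which shared this division, are not shown. Sequences are from RefSeq (GRCm38.p6), from 250 bases before to 50 bases after the annotated start, 5′ to 3′ on the strand of the gene. They are Arntl2 (chr6:146805280-146805579, plus strand), E330012B07Rik (chr6:147179991-147180290, plus), Cdh20 (chr1:104768270-104768569, plus) and AA465934 (chr11:83291449-83291748, plus). Capitals mark a match on either strand to the E-box letters CACGTG, the CCAAT box, the GC box letters GGGCGG or the TATA box letters TATAAA.
Arntl2: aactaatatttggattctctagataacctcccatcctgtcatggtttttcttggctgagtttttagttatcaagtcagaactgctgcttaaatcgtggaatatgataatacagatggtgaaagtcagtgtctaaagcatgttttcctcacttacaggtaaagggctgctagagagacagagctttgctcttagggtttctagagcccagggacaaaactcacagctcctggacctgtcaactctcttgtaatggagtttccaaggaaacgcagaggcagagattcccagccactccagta
E330012B07Rik: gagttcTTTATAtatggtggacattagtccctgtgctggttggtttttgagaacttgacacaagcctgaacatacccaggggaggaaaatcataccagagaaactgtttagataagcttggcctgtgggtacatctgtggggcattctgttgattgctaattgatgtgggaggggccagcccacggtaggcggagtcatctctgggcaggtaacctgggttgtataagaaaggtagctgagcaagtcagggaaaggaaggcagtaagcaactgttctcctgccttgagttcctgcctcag
Cdh20: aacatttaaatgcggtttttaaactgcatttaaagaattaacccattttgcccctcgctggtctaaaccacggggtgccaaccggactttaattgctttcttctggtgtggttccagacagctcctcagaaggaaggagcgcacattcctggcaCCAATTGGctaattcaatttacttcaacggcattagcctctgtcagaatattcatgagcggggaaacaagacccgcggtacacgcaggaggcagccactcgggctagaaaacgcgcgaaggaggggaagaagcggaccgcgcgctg
AA465934: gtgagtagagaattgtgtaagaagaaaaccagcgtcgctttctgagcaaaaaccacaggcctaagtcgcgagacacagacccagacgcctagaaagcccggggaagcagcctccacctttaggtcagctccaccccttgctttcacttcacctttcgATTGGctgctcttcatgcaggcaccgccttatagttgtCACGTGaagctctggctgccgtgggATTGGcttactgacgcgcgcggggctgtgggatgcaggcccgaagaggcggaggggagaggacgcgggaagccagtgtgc

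None of the motifs occurred in every window. The letters CACGTG, to which CLOCK partners such as ARNTL2 bind, occurred in AA465934, the gene of opposite direction. They occurred in 7.15% of the 32851 RefSeq promoter windows of the same length. CCAAT was found in Cdh20, where its forward and reverse matches overlap, and in AA465934, and in 37.4% of all windows. TATAAA was found on the reverse strand in E330012B07Rik, at the upstream end of the window, and in 13.6% of all windows, and GGGCGG, present in 35.7% of all windows, was in none of the 4. CpG content also differed, with 2 CpG in each of the Arntl2 and E330012B07Rik windows and 18 in each of the other windows. Of the 47 members, 27 had a RefSeq promoter entry, and their 38 entries held a median of 8 CpG against 7 over all windows. The Arntl2 window lies inside the gene as the count tables define it, which runs from 146796055 to 146833529 on chromosome 6 (mm10).

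Arntl2 encodes a basic helix-loop-helix partner of CLOCK and is the paralogue of Arntl. Its level was 1.84, 6.11, 93.2 and 83.98 CPM in young WT sets Young_WT__246, T148, T211 and T231. It was 2.18 and 4.57 CPM in young Tet1-/- sets Young_Tet1-/-_201 and T146, and 72.1 and 68.4 CPM in young Tet2-/- sets T213 and T214. In old oocytes it was 1.26 and 73.5 CPM in WT sets Old_WT_365 and Old_WT_247, 1.28 and 0.364 CPM in Tet1-/- sets Old_Tet1-/-_209 and Old_Tet1-/-_315, and 70.9 CPM in Tet2-/- set S161. The 4 young WT sets were thus split evenly, as were the old WT sets, while all Tet1-/- sets were low and all Tet2-/- sets high. Over summed counts the high sets were 27.1-fold above the low sets. Every one of the 94 oocytes lay on the side of its set: the highest oocyte of a low set was at 9.60 CPM and the lowest oocyte of a high set at 38.8 CPM.

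Cdh20, a cadherin of calcium-dependent cell adhesion (chromosome 1, 104768529 to 104995481), divided the sets exactly as Arntl2 did. It was at 0.175, 0, 10.9 and 12.98 CPM in young WT sets Young_WT__246, T148, T211 and T231 and at 0.251 and 0.407 CPM in young Tet1-/- sets Young_Tet1-/-_201 and T146. Young Tet2-/- sets T213 and T214 stood at 12.7 and 13.2 CPM. The old sets read 0.0524 (Old_WT_365) and 16.6 CPM (Old_WT_247) in WT, 0.0474 (Old_Tet1-/-_209) and 0 CPM (Old_Tet1-/-_315) in Tet1-/-, and 11.7 CPM (S161) in Tet2-/-. All 94 oocytes were on the side of their set, with at most 1.16 CPM in an oocyte of a low set and at least 3.595 CPM in an oocyte of a high set. The ratio over summed counts was 66.3-fold.

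Coro2b encodes a coronin that binds actin filaments (chromosome 9, 62419492 to 62537044). It differed from this division by a single set, T231, which was low at 0.495 CPM. The other young WT sets were at 0.296 (Young_WT__246), 0.983 (T148) and 67.4 CPM (T211). Young Tet1-/- sets stood at 0.140 (Young_Tet1-/-_201) and 0.441 CPM (T146), and young Tet2-/- sets at 67.97 (T213) and 53.1 CPM (T214). Old WT sets stood at 0.314 (Old_WT_365) and 81.2 CPM (Old_WT_247), and old Tet1-/- sets at 0.0948 (Old_Tet1-/-_209) and 0 CPM (Old_Tet1-/-_315). Set S161 had an intermediate 32.9 CPM, and here the summed value hid a split: 2 of its 7 oocytes were at 111 and 119 CPM and the other 5 between 0 and 1.59 CPM.

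Cast, calpastatin, the inhibitor of calpain proteases (chromosome 13, 74692368 to 74808810), followed a different division. It was low in young WT set Young_WT__246 at 0.323 CPM and high in T148, T211 and T231 at 10.3, 21.9 and 16.8 CPM. Both young Tet1-/- sets were low, at 0.447 (Young_Tet1-/-_201) and 0.662 CPM (T146), and both young Tet2-/- sets high, at 10.1 (T213) and 26.4 CPM (T214). In old mice the Tet1-/- sets fell on opposite sides, at 9.43 (Old_Tet1-/-_209) and 0.121 CPM (Old_Tet1-/-_315), while WT sets Old_WT_365 and Old_WT_247 were at 11.7 and 11.3 CPM and Tet2-/- set S161 at 20.2 CPM. No oocyte was off the side of its set. An exon of Cast overlaps one of Erap1, and since reads were counted for every gene they touch and without strand, reads there cannot be assigned to one of the genes.

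Donson encodes a factor that assembles and protects the replication fork (chromosome 16, 91677268 to 91688765). Its low side was not an absence. It was at 11.8 CPM in young WT set T211 and 15.4 CPM in young Tet1-/- set T146. The remaining young sets ran from 67.7 CPM (T213) through 107 (T214), 128 (T231), 138 (T148) and 196 (Young_WT__246) to 254 CPM (Young_Tet1-/-_201). The old sets lay between 104 CPM (S161) and 343 CPM (Old_Tet1-/-_209), with 138 (Old_WT_365), 146.1 (Old_WT_247) and 297 CPM (Old_Tet1-/-_315). Of the 94 oocytes, 3 were off the side of their set, 1 of set Young_WT__246 and 2 of set T213. Ptp4a1, a membrane-anchored tyrosine phosphatase on chromosome 1, had the same division, at 74.8 and 86.3 CPM in T211 and T146 and 357 to 1626 CPM in the other sets. Exons of Donson overlap Son and Atp5o, so part of its counts may belong to these genes.

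**Figure D1:**
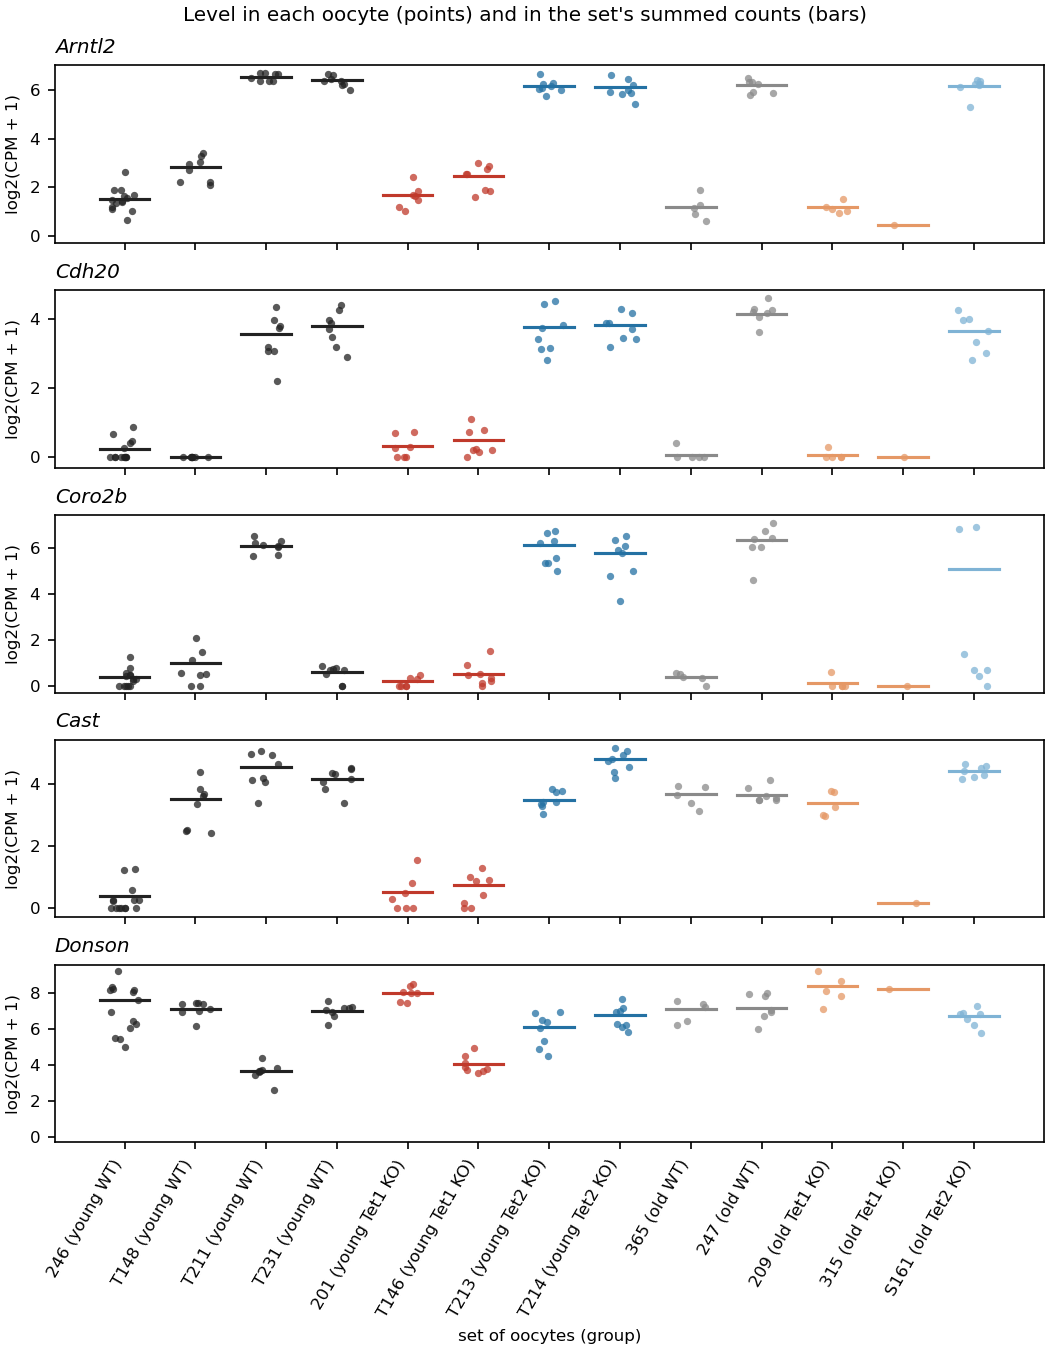
Level of Arntl2, Cdh20, Coro2b, Cast and Donson as log2(CPM + 1) (vertical axis) in each of 94 oocytes (points), by set and group (horizontal axis), with the value of the set's summed counts as a bar. The young WT sets (black) lie at separate levels for each gene, and the 7 oocytes of S161 split for Coro2b.

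The other protein-coding genes with the widest gaps were likewise low in sets of several groups. Pxdn, a peroxidase that crosslinks basement membrane collagen, was at 0.390 CPM in young WT set Young_WT__246 and 0.340 CPM in young Tet1-/- set T146 and at 23.9 to 56.5 CPM in the other 11 sets. Manba, the lysosomal beta-mannosidase, was at 1.12 to 2.82 CPM in T148, T214, Old_Tet1-/-_209 and S161 and at 60.98 to 234 CPM elsewhere. It lies 1.94 Mb from Tet2 on chromosome 3, and the young Tet2-/- sets were on opposite sides of its gap, with T213 at 126 CPM and T214 at 1.12 CPM. Mettl7a1, a methyltransferase-like protein, was at 1.21 CPM in T211 and 0.670 CPM in Young_Tet1-/-_201 against 28.4 to 93.5 CPM. Galnt7, an enzyme that adds sugars to proteins, was the reverse case: it was high in T231 (33.9 CPM) and T214 (18.4 CPM) and at 0 to 0.545 CPM in 11 sets. Tox3, a high mobility group protein, was at 14.4 to 53.2 CPM in T148, Young_Tet1-/-_201, T213, Old_WT_247, Old_Tet1-/-_209 and S161 and at 0 to 0.306 CPM in the other 7.

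Junb, a subunit of the AP-1 transcription factor, was at 0.485 to 1.36 CPM in Young_WT__246, T146, Old_WT_365 and Old_Tet1-/-_315 and at 20.7 to 55.7 CPM in the other 9 sets. Cd300c, an immunoglobulin-like receptor known from myeloid cells, was at 0.0279 CPM in Young_Tet1-/-_201 and 0.0274 CPM in Old_WT_247, which together held 2 counts, and at 8.61 to 22.3 CPM in the other 11 sets. Macrophage and leukocyte markers summed to 7.15 to 19.4 CPM in 12 sets and to 329.7 CPM in S161, where Cd300c was at 9.57 CPM, below its 22.3 CPM in set Old_WT_365. Their part in the Cd300c level was not tested. Defb8, a beta-defensin, was at 8.04, 10.4 and 11.3 CPM in T211, T214 and S161 and at 0.0848 CPM or less elsewhere. Scd3, a stearoyl-CoA desaturase, was at 12.3 CPM in T214 and 12.2 CPM in S161 and at 0 to 0.766 CPM elsewhere. Of all 47 members, 21 stayed under 1 CPM throughout their low side, and the high side exceeded the low by a median of 32.1-fold over summed counts (7.73-fold to 475.5-fold among the 46 genes with counts on the low side).

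**Figure D2:**
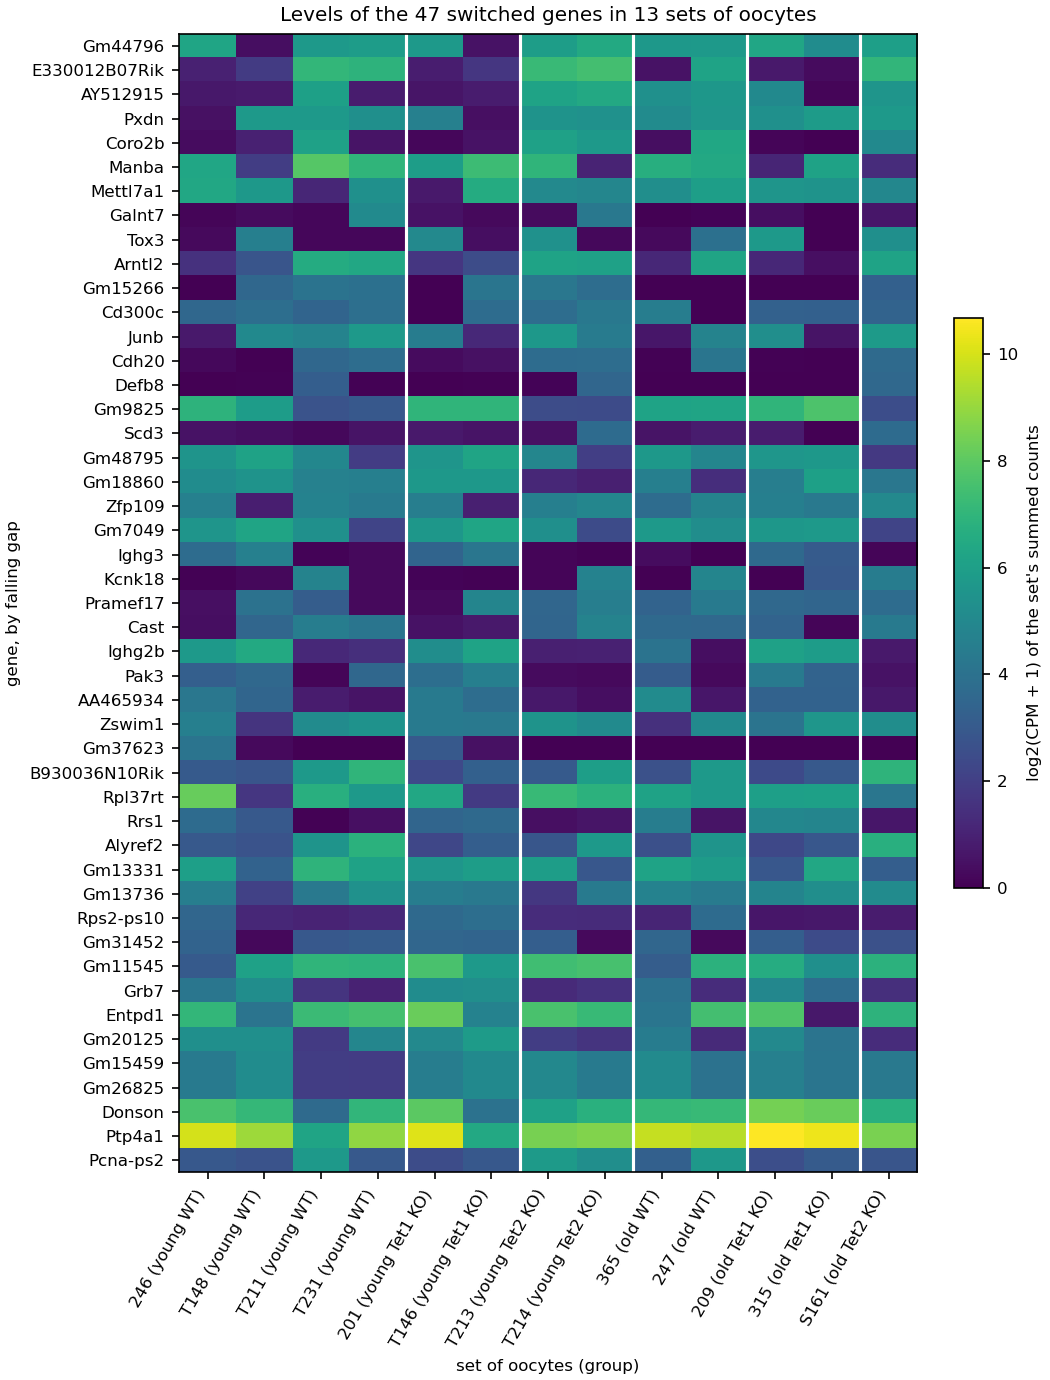
Level of the 47 genes (rows, by falling gap) as log2(CPM + 1) of the summed counts in each of 13 sets (columns, with the group; white lines separate groups). Within the 4 young WT sets at the left, 44 of the 47 genes have sets on both sides of their gap.

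The remaining protein-coding members were Zfp109, Kcnk18, Pramef17, Pak3, Zswim1, Rrs1, Alyref2, Grb7 and Entpd1, named for completeness after their values were seen. Kcnk18, a background potassium channel, was at 6.91 to 28.1 CPM in T211, T214, Old_WT_247, Old_Tet1-/-_315 and S161 and at 0 to 0.190 CPM in the other 8 sets. Entpd1, an ectonucleotidase, had a low side that ran from 0.606 CPM in Old_Tet1-/-_315 to 25.4 CPM in T146, with 16.2 CPM in T148 and 16.6 CPM in Old_WT_365, and a high side of 117 to 303 CPM. Zswim1, a zinc finger protein, was low in T148 and Old_WT_365, at 2.05 and 1.78 CPM, against 16.3 to 47.3 CPM.

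By annotated type, 24 members were protein-coding (51.1%, against 88.4% of the 8340 genes), 11 were pseudogenes (23.4% against 3.13%), 10 were long non-coding or unclassified transcripts (21.3% against 7.49%) and 2 were immunoglobulin constant genes (4.26% against 0.0959%). The rule did not use the type, but counting can be less certain in pseudogenes, gene families and overlapping genes. The authors' settings kept multi-mapped reads, though only at mapping quality 30 or more. How many such reads passed that limit is not known here, and their part in these shares was not tested. Of the 47, 12 overlapped an exon of another gene. Gm48795 and Gm7049 on chromosome 13, B930036N10Rik and Alyref2 on chromosome 1, and Gm15459 and Gm26825 on chromosome 5 are overlapping pairs on opposite strands. Both genes of each pair are members. A pair may hold a single signal, but every total given here counts both of its genes. Gm15459 and Gm26825 had almost the same values in every set, 2.88 CPM for both in T211 and 2.70 CPM for both in T231, against 15.5 to 35.7 CPM.

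Named relatives of members, some of which could share reads with them, were mixed in behaviour. Pcna, the sliding clamp of replication and parent of Pcna-ps2, was at 234 to 385 CPM in the sets where the pseudogene was low and at 227 to 311 CPM where it was high. Alyref, relative of the mRNA export adaptor gene Alyref2, was at most 1.87 CPM in any set. Rps2, parent of Rps2-ps10, was at 60.1 to 152 CPM where the pseudogene was low and at 36.4 to 58.3 CPM where it was high. Rpl37 was at 2.70 to 2.82 CPM where its copy Rpl37rt was low and at 5.40 to 78.7 CPM where it was high. Mettl7a2, which lies 24.5 kb from Mettl7a1, moved with it, at 18.8 to 34.9 CPM where Mettl7a1 was low and 85.6 to 241 CPM where it was high.

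The 47 genes divided the 13 sets in 32 ways, of which 24 occurred once. The commonest division, that of Arntl2, was shared by 7 genes on 4 chromosomes. It set Young_WT__246, T148, Young_Tet1-/-_201, T146, Old_WT_365, Old_Tet1-/-_209 and Old_Tet1-/-_315 against T211, T231, T213, T214, Old_WT_247 and S161. Arntl2, E330012B07Rik and Cdh20 were high in the latter sets. Ighg2b, AA465934, Rrs1 and Grb7 were high in the former.

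Manba and Gm13331, a pseudogene on chromosome 2, also shared a division across chromosomes, low in T148, T214, Old_Tet1-/-_209 and S161. With 1 set moved, 14 genes on 7 chromosomes matched the Arntl2 division. In the opposite direction to Arntl2, Rrs1, a ribosome biogenesis factor, was at 6.92 to 29.7 CPM in the 7 sets where Arntl2 was low and at 0.0347 to 0.545 CPM in the other 6. Grb7, an adaptor of receptor tyrosine kinases, was at 12.6 to 37.1 CPM in those 7 sets and at 1.03 to 2.04 CPM in the other 6. Pak3, a kinase downstream of small GTPases, matched but for T231, with 7.49 to 23.7 CPM on its high and 0.104 to 0.454 CPM on its low side.

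The immunoglobulin constant genes Ighg2b and Ighg3, 48.3 kb apart on chromosome 12, both ran opposite to Arntl2. Ighg2b was at 15.7 to 89.2 CPM in the 7 sets of low Arntl2 and at 0.301 to 1.71 CPM in the other 6. Ighg3 was at 7.39 to 24.1 CPM in the same sets except Old_WT_365, where it was at 0.262 CPM. Among 12 markers of B and plasma cells, listed after these members were seen, 6 stayed under 1 CPM in every set. Their summed level, 119 to 297 CPM, was led by Ms4a1 (51.4 to 234 CPM). Ighm, the mu constant gene of the same list, was at 18.1 to 26.6 CPM in 6 of the 7 sets of high Ighg2b, at 9.94 CPM in Old_Tet1-/-_315, and at 11.03 to 14.6 CPM in the sets of low Ighg2b. Ighg1, 25.7 kb from Ighg3, was at 23.5 to 90.2 CPM where Ighg3 was high and at 3.17 to 8.19 CPM where it was low. The part of B or plasma cell RNA in these levels was not tested.

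Close pairs with the same division accounted for 10 genes. Besides the 3 overlapping pairs they were Arntl2 with E330012B07Rik, a long non-coding RNA gene 347 kb away, and Zfp109 with Gm44796, 13.2 kb apart on chromosome 7. E330012B07Rik was at 0.242 to 2.61 CPM in the 7 low sets and at 71.04 to 176 CPM in the 6 high sets. Zfp109, a zinc finger gene, was at 0.855 CPM in T148 and 0.934 CPM in T146 and at 12.5 to 31.7 CPM elsewhere, and Gm44796, with the widest gap of all members (4.69), was at 0.299 and 0.424 CPM in these sets and at 35.6 to 87.9 CPM elsewhere. In all, 12 of the 47 lay within 1 Mb of another member, and members lay on 18 chromosomes with at most 6 on any of them.

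Some genes that are not members but lie within 1 Mb of one shifted along the member's division, in either direction. Over the 47 divisions there were 525 pairs of a member and a neighbour of 10 CPM or more that shares no exon sequence with it, and in 45 pairs (8.57%) the neighbour's mean log2(CPM + 1) differed by at least 1 between the member's high and low sets. Among genes farther away the share was 2.54%. These are descriptions of the same libraries, and a neighbour can appear with more than 1 member. Pthlh, a secreted hormone gene 43.8 kb from E330012B07Rik, was at 26.4 to 44.6 CPM in the high sets of Arntl2 and 2.35 to 7.34 CPM in the low sets, with no overlap. Irgc1, a GTPase-like gene 194 kb from Zfp109, was at 4.64 to 15.9 CPM against 0.257 and 0.526 CPM. Slc39a8, a zinc and manganese transporter 254 kb from Manba, was at 0 to 0.373 CPM where Manba was low and 0.485 to 109 CPM where it was high.

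Pairs of sets differed by 5 to 36 of the 47 genes. Sets T214 (young Tet2-/-) and S161 (old Tet2-/-) were on opposite sides for 5 genes, Young_WT__246 (young WT) and Young_Tet1-/-_201 (young Tet1-/-) for 6, and Old_WT_365 (old WT) and Old_Tet1-/-_315 (old Tet1-/-) for 6. The S161 sums mix oocytes that differ from each other, and taken singly its oocytes differed from T214 in 6 to 8 genes. The largest number, 36, was between T146 (young Tet1-/-) and T214 (young Tet2-/-). The 10 pairs of sets within a group had a median of 20.5 genes on opposite sides (range 8 to 33), and the 68 pairs across groups had the same median of 20.5 (range 5 to 36). Pairs within a series had a median of 14 and pairs across series of 22. In young WT, with 4 sets, 44 of 47 genes had sets on both sides. In the groups of 2 sets the number was 14 in young Tet1-/-, 13 in young Tet2-/-, 23 in old WT and 8 in old Tet1-/-. A group of more sets is more readily split, so the young WT number cannot be set against the others.

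**Figure D3:**
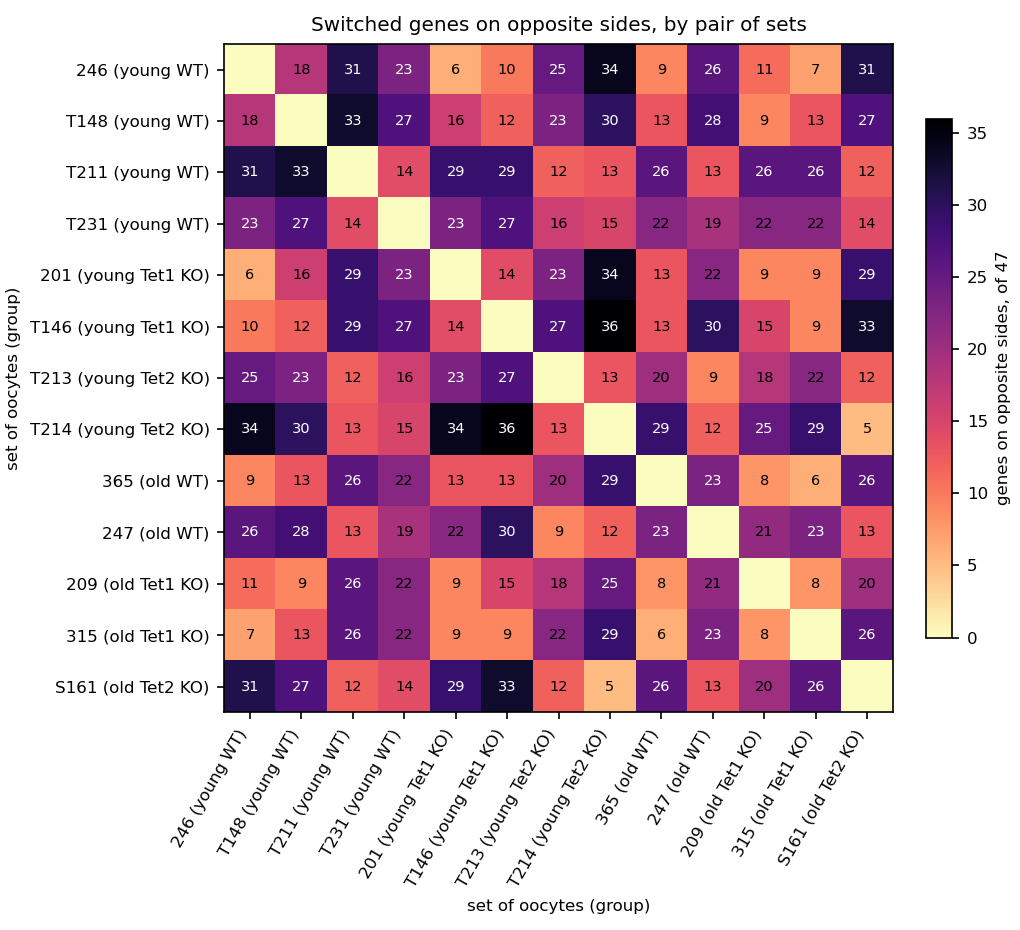
Number of the 47 genes on opposite sides (colour and printed value) for each pair of the 13 sets (axes, with the group). Values range from 5 (T214 and S161) to 36 (T146 and T214), and Old_Tet1-/-_209 and Old_Tet1-/-_315, of 1 group, differ in 8.

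Of 4418 values (94 oocytes and 47 genes), 4361 (98.7%) were on the side of the oocyte's own set and 57 were not, although an oocyte's counts are part of its set's sum. For 24 genes no oocyte was off. All 47 genes were on the own side in 65 oocytes. For 93 oocytes a rest of the set could be formed, and 92 of these differed from that rest in fewer genes than from any other set. The genes and their gaps were chosen from the sums of these sets, which favours such an outcome. These numbers are therefore descriptions, and no share over other genes was computed.

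The exception was oocyte 8 of set Young_Tet1-/-_201, which differed from the rest of its set in 9 genes and from set Young_WT__246 in 7. It was at 0.410 CPM for Pxdn, where the other oocytes of the set had 9.31 to 46.3 CPM. For Tox3 it was at 0 CPM against 27.8 CPM or more, and for Manba at 1.23 CPM against 63.01 to 87.2 CPM. Without this oocyte the rule found 49 genes.

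Gm37623, an antisense transcript on chromosome 1, was mixed within sets more than any other member, with 12 oocytes off. It was detected above 1 CPM in the sums of sets Young_WT__246 (16.03 CPM) and Young_Tet1-/-_201 (6.87 CPM) alone. Within Young_WT__246 its oocytes ran from 0.497 to 45.5 CPM (median 6.87). In Young_Tet1-/-_201 the median oocyte was at 0.244 CPM and 6 of 7 lay on the low side, so its high value rests on a single oocyte.

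Set S161 held 20 of the 57 off-side values. Oocytes 2 and 7 differed from the other 5 in the same direction at 6 genes, which were chosen after their values were seen. Coro2b was at 111 and 119 CPM in these against 0 to 1.59 CPM, and Rpl37rt, a retrotransposed copy of a ribosomal protein gene, at 50.9 and 53.4 CPM against 1.38 to 4.97 CPM. The reverse held for Mettl7a1 (1.26 and 2.94 CPM against 29.2 to 54.3 CPM), Cd300c (0 and 0.326 CPM against 10.3 to 17.9 CPM), Gm18860 (0.948 and 1.96 CPM against 17.1 to 33.5 CPM) and Kcnk18 (0.316 and 0.326 CPM against 25.6 to 37.4 CPM). Gm31452, a long non-coding RNA, was also lower in oocytes 2 and 7 (0 and 1.63 CPM against 4.71 to 8.26 CPM), though oocyte 7 stayed on the high side. The oocyte rich in leukocyte transcripts, number 6, was on the side of the larger part at all of the 6 genes, Cd300c included (12.0 CPM).

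**Figure D4:**
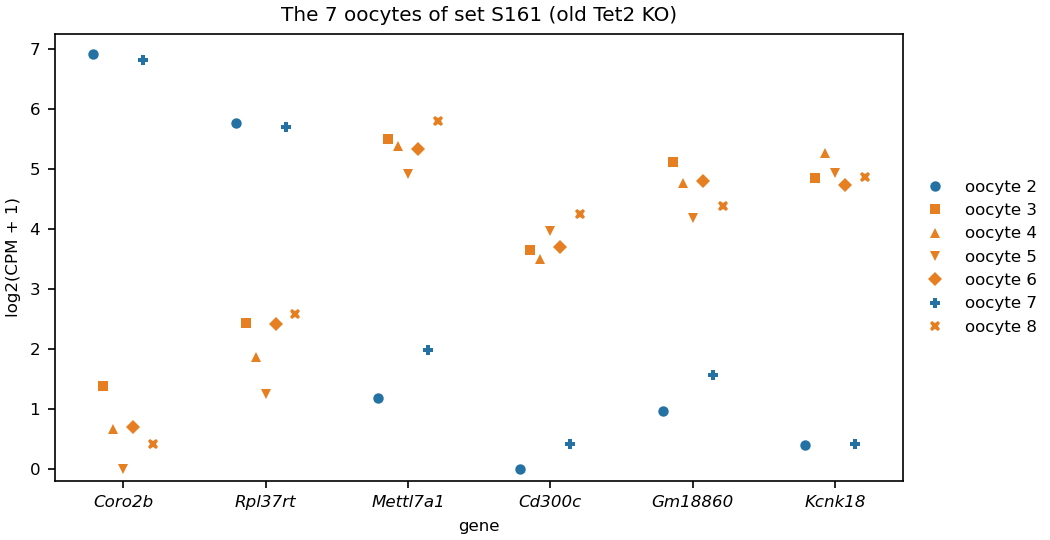
Level of 6 genes as log2(CPM + 1) (vertical axis) in the 7 oocytes of set S161 (symbols). Oocytes 2 and 7 (blue) lie on the other side of the remaining 5 (orange) for each of the genes.

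The study's groups were compared by edgeR's quasi-likelihood test on the 13 sums with series as a covariate, over 14418 genes, all 47 members among them. Since the members were chosen from the spread of these same sums, their counts are descriptions. In young Tet1-/- against young WT no member passed an adjusted p of 0.05 (0.0208% of all genes did), and 2 members against 691 genes had an unadjusted p under 0.05. In young Tet2-/- against young WT the count was also 0 (0.0139% of genes), with 7 members and 835 genes at an unadjusted p under 0.05. Old Tet1-/- against old WT gave 0 (0.0347% of genes), with 7 members and 1794 genes at the unadjusted level. Old against young WT gave 0 (0.0416%), with 4 and 1873, and the change of the Tet1-/- effect with age gave 0 (0%), with 1 and 841. DESeq2 called 0, 2, 1, 1 and 1 members in these comparisons, in the order given (0.208%, 0.111%, 2.08%, 2.27% and 0.118% of genes). The counts changed with the filter for low counts. With all 33500 genes of any count kept, edgeR called 24, 22, 22, 21 and 16 members (0.752%, 0.675%, 1.68%, 2% and 0.594% of genes), and the cause was not tested.

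The median absolute log2 change of the members was 1.20 in young Tet1-/- against WT, where that of all genes was 0.24, and the signed median was -0.06 against 0.003 over all genes. Choosing members by wide gaps between these sums favours large absolute changes in any comparison. The other comparisons showed them too, such as old against young WT (0.98 against 0.40) and numbered against lettered series (1.52 against 0.44). For Arntl2 the log2 change was -2.01 ± 1.82 (SE) in young Tet1-/- (adjusted p = 0.967), with both Tet1-/- sets and 2 of 4 young WT sets on the low side. For old Tet1-/- against old WT it was -5.18 ± 1.83 (adjusted p = 0.311). Cast read -2.68 ± 1.604 in young Tet1-/- (adjusted p = 0.967) and Donson -1.25 ± 1.02 (adjusted p = 0.967).

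In young Tet1-/- against young WT, 6 of 47 members (12.8%) had sets that did not overlap between groups, against 10.5% of the 8340 genes. In young Tet2-/- this was 6 (12.8%) against 1126 of the 8340 genes, in old Tet1-/- against old WT 15 (31.9%) against 43%, and in old against young WT 3 (6.38%) against 13.6%. Shares near those of all genes are no result about the members. Only Gm18860 and Ighg3, singled out after their values were seen, had all sets of 1 group above the gap and all sets of its comparison group below it. As they were picked for this, their values are given with no test. Gm18860, a processed pseudogene on chromosome 8, was at 1.30 and 0.933 CPM in young Tet2-/- sets T213 and T214 and at 23.6 to 44.1 CPM in young WT. Old WT set Old_WT_247 was low as well at 1.64 CPM, and S161 was divided. Ighg3 was at 11.6 and 7.39 CPM in old Tet1-/- sets Old_Tet1-/-_209 and Old_Tet1-/-_315 and at 0.262 and 0.0274 CPM in old WT sets Old_WT_365 and Old_WT_247.

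Between the numbered and the lettered series 3 members passed (6.22% of all genes did), with 8 members and 3615 genes at an unadjusted p under 0.05. DESeq2 called 5 (14.1% of genes) and edgeR with all genes of any count 27 (6.16%). The number of genes called, 897 with all sets, depended on single sets: it was 4 (0.0279%), 2 of them members, without Young_WT__246, 183 without T146, 1.36% of genes without Young_Tet1-/-_201, and 408 to 1398 without each of the others. Gm15266, a pseudogene on the X chromosome, divided the sets exactly by series. It had 0 counts in all 6 numbered sets and was at 10.98, 15.7, 14.3, 16.8, 17.7, 12.99 and 8.71 CPM in T148, T211, T231, T146, T213, T214 and S161 (edgeR adjusted p = 0.000843). Its level was at least 949.7-fold higher in the lettered sets, taking 3 counts over all numbered sets as the floor. In the columns used here the series also differ in the table their counts come from, so series and table cannot be told apart. The table of the lettered sets has 39 further columns, left unused, and Gm15266 was not examined in them.

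Pramef17, of the PRAME family, was lower in the numbered series by edgeR (log2 change -5.36 ± 1.35, adjusted p = 0.0438). The numbered sets Young_WT__246 and Young_Tet1-/-_201 were at 0.336 and 0.196 CPM but Old_WT_365, Old_WT_247, Old_Tet1-/-_209 and Old_Tet1-/-_315 at 9.48, 19.5, 11.2 and 10.3 CPM, and the lettered set T231 was low too at 0.190 CPM, so the series do not part at the gap. The call was lost on leaving out any 1 of 11 sets, all but T231 and S161 (edgeR adjusted p up to 0.277). Gm37623 was higher in the numbered series (log2 change 6.24 ± 1.01, edgeR adjusted p = 0.0213) and reached 1 CPM in Young_WT__246 and Young_Tet1-/-_201 alone. DESeq2 did not call it (adjusted p = 0.365).

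The relatives of the named genes, in lists written with earlier results of these data known, had gaps under 2, some along a member's division. Of 23 core clock genes 13 reached 10 CPM, and Arntl2 was the only member. The next widest gap was 0.63, for Bhlhe41, which lies 931 kb from Arntl2, and Arntl itself was at 252 to 486 CPM with a gap of 0.19. Among 20 cadherins, 7 reached 10 CPM, and the next gap after Cdh20 was 1.16 (Cdh19). Cdh19 was at 11.99 to 23.9 CPM in the 6 sets where Cdh20 was high and at 0.342 to 6.09 CPM in the other 7. Its widest gap did not part these sets: it lay among the 7, between 1.57 CPM in Old_WT_365 and 4.74 CPM in Young_WT__246. Of 4 coronins of 10 CPM or more, the widest gap outside Coro2b was 0.28. Of 5 calpain genes it was 1.28, for the protease Capn3, at 5.13 to 6.93 CPM in the 5 sets where Coro2b was high and at 18.3 to 43.5 CPM elsewhere. Of 27 replication fork genes it was 1.36, for the checkpoint adaptor Topbp1, which was lowest in T211 and T146 (2.32 and 2.28 CPM), the low sets of Donson, and at 7.52 to 26.3 CPM elsewhere. The median gap of all 8340 genes was 0.24, and no gene of these lists other than the 5 leading ones was a member.

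In none of these 5 lists did a gene pass the tests of genotype or age. Between series, Nr1d1 of the 18 clock genes tested was higher in the numbered sets, 1 of 11 cadherins (Cdh9) was lower, and of 30 replication genes Topbp1 was higher and Cdc45 lower, beside 6.22% of all genes. No coronin of 5 and no calpain gene of 6 passed. Of 22 genes of DNA methylation and demethylation none was a member, and among the 20 tested Tet1 fell in young Tet1-/- and Dnmt3a was higher in the numbered series. None of the calls of Nr1d1, Cdh9, Topbp1, Cdc45 and Dnmt3a between series held without Young_WT__246, Young_Tet1-/-_201 or T146 (edgeR adjusted p = 0.0796 to 0.271). A list of 8 genes known to differ between the C57BL/6 and 129 strains had 1 gene of 10 CPM or more (Wdfy1, gap 0.21) and no member, and none of the 4 tested passed in any comparison. Since the rule asks for 10 CPM, Wdfy1 alone of this list could have been a member. The part of strain differences in the members' levels was not tested.

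In the E13.5 germ cells, 25 of the 47 genes could be matched, and values are FPKM (per gene length and library size) in 1 library each, with no replicate. Such bulk libraries cannot tell fewer cells of a type from less RNA per cell. None of the 25 differed by 2-fold or more between Tet2-/- and WT on log2(FPKM + 1), where 1.49% of 19004 genes did. Arntl2 was at 1.34 FPKM in WT and 1.68 FPKM in Tet2-/-, Coro2b at 7.09 and 5.27, Cast at 8.82 and 8.95 and Donson at 18.7 and 18.9 FPKM. Junb had the largest difference, 20.7 against 11.03 FPKM (log2 -0.85). In both libraries 8 of the 25 were under 1 FPKM, among them Cdh20 (0.18 and 0.14 FPKM), Kcnk18 (0.01 and 0.02 FPKM) and Entpd1 (0.17 and 0.10 FPKM), which reached 303 CPM in oocytes.

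At the threshold, the members with the narrowest gaps were Pcna-ps2 (2.002), Ptp4a1 (2.037) and Donson (2.069). The genes just outside were Tpm4 (1.996), 9130015A21Rik (1.962) and Car10 (1.951). Levels on both sides of the gap are not given above for the pseudogenes Gm9825, Gm13331, Gm13736, Gm11545, Gm7049, Rps2-ps10, Pcna-ps2 and Rpl37rt. The same holds for the protein-coding Alyref2 and the transcripts AY512915, Gm20125, Gm31452, Gm48795 and B930036N10Rik. Gaps of these members ran from 2.002 to 4.24, and their low sides stayed at or below 9.10 CPM.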

How the data were processed

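Gene counts per oocyte and germ cell FPKM values were used as deposited by the authors. Per the file headers, counts are unnormalized and came from featureCounts 1.6.2 with GENCODE mouse release 17, without strand, with multi-mapped reads and reads of several genes kept, at mapping quality 30 or more. Alignment tools listed in the submitters' processing notes are SAMtools and HISAT2, with the mm10 build. How the authors computed FPKM is not given in the sources used here, and the depth behind it is unknown.

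Of 135 samples, 39 repeat the titles of numbered oocytes for the second count table, nearly all with characteristics that contradict the title. They were given no group and 39 count columns were not used. Counts were summed per set. edgeR 4.0.16 (R 4.3.3; TMM scaling, quasi-likelihood, group and series as terms, genes of 1 CPM in at least 2 sets, Benjamini-Hochberg adjustment) gave the tests, and DESeq2 1.42.0 was an alternative. Both the fit and the gap rule were run on simulated data as a check of the code. The simulated sets had less spread than the real ones, so these runs give no error rate for the data. Symbols came from a table of gene identifiers (95 unmatched), and gene types from a later GENCODE mouse annotation. The members and the lists were chosen with earlier results of these data known. Genes named singly are the 5 leading genes, the 12 protein-coding genes of widest gap, the members past a test, close pairs of like division, those nearest the threshold and the Tet genes, and others are said to be chosen later.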

Additional observations from a re-analysis of the deposited data

Results flagged for a closer look

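In 25 small groups of values, 14 genes in the 4 young WT sets and the oocytes of 11 sets, Dixon's test at the 95% level picked out 9 values. Chance picks about 1 group in 20, a rate that does not apply to the gene levels, because the genes were chosen for a gap between these sets. Nor does it apply to the oocytes, whose numbers of genes are often tied. Where all others of a set have 47, a single oocyte at 46 is always picked out. Coro2b in set T211 (67.4 CPM), Galnt7 in T231 (33.9 CPM), Tox3 in T148 (23.4 CPM) and Defb8 in T211 (8.04 CPM) were each far above the other young WT sets. Donson in T211 (11.8 CPM) and Pxdn in Young_WT__246 (0.390 CPM) were far below them. Among oocytes, oocyte 8 of set Young_Tet1-/-_201 lay on its set's side for 38 genes, well below the others of its set. Single oocytes of sets Old_WT_365 and T148 lay on it for 46 of 47 genes, where all others of these sets had 47.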

How the results depend on the processing

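No paired analysis was possible because the sets carry no replicate number shared between groups. The number of switched genes (47) followed the rule: 89 with a gap of 1.5, 15 with a gap of 3, 81 with a pseudocount of 0.1, 15 with a pseudocount of 5 and 31 with 3 sets on each side. It was 40 to 54 under other minimum levels, TMM scaling, the median over oocytes and without oocyte 8 of set Young_Tet1-/-_201, 46 without the leukocyte-rich oocyte (an alternative chosen after seeing the data), and 42 to 53 without a set. The share of oocyte values on the own side was 94% with a midpoint at the mean of all sets. Members past the test were most affected by the low-count filter: with all genes of any count, 24 passed in young Tet1-/-, 22 in young Tet2-/-, 22 in old Tet1-/-, 21 in old against young WT, 27 between series and 16 for the change with age; the cause was not tested. In the same order DESeq2 gave 0, 2, 1, 1, 5 and 1. The shares of all genes that belong to these counts are given above with the tests. Leaving out a set of any group but young WT leaves at most 1 set there, so those member counts are not given. Without each young WT set in turn, 0 members passed in young Tet2-/- (0.0139% to 0.021% of genes) and old Tet1-/- (0.0348% to 0.0698%). In young Tet1-/- 1 passed without Young_WT__246 (0.0349%) and 0 without T148, T211 or T231 (0.0209% to 0.0417%). For old against young WT 1 passed without Young_WT__246 (0.00698%) or T231 (0.0836%), and 0 without T148 or T211 (0.0487% to 0.0695%). Between series 2 passed without Young_WT__246 (0.0279%) and 3 to 4 without T148, T211 or T231 (2.89% to 4.21%). The change with age gave 1 without Young_WT__246 (0.00698%) and 0 without T148, T211 or T231 (0%). Dropping the series term or oocyte 8 of set Young_Tet1-/-_201 changed no count of members past the test. In germ cells a pseudocount of 0.1 put 2 of 25 members past 2-fold, where 7.77% of all genes were, a share near that of the members. They were Pak3 (0.41 and 0.15 FPKM) and AA465934 (0.44 and 1.47 FPKM), both near the floor. Depth limits the low sides, where 21 genes are under 1 CPM.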
